A study of Mus musculus with 15 samples.

Results

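The 32 genes described here carry glucose into the cell, break it down to pyruvate and lactate, store it as glycogen or send it into the pentose phosphate pathway. They were taken by symbol from the 23337 genes of a count table, and all 32 were found, Pkm under its older symbol Pkm2. The RNA came from FACS-purified cardiomyocytes, the contracting cells of the heart, which had been isolated by Langendorff perfusion from 4 week old mice of the Rosa-Cas9GFP line. Pups had received an adeno-associated virus (AAV) on postnatal day 1. The vector carried GFP alone (AAV-GFP, the control), ATF4 and GFP joined by a 2A peptide (AAV-ATF4-2A-GFP), or DDIT3 and GFP joined in the same way (AAV-DDIT3-2A-GFP), with 5 libraries for each of the 3 vectors. All 3 groups, the control included, thus carried the Rosa-Cas9GFP allele, an AAV and GFP from the vector. The promoter that drives the vectors is not given in the sources used here. ATF4 switches on amino acid synthesis and transport genes when the integrated stress response slows translation, and DDIT3 (CHOP) is a factor that stressed cells make after prolonged protein misfolding in the endoplasmic reticulum.

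Heart muscle burns mostly fatty acids but takes up glucose through the insulin-regulated transporter GLUT4 and the basal transporter GLUT1, phosphorylates it with hexokinase, and commits it to glycolysis at phosphofructokinase. Many steps have a muscle isoform, abundant in striated muscle, and a ubiquitous isoform used by most other cells, so that the ratio of the pair describes the kind of glycolysis a cell is equipped for. Lactate is interconverted with pyruvate by lactate dehydrogenase and crosses the membrane through monocarboxylate transporters.

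The promoters of 4 genes are shown as examples: Slc2a1 and Pfkp, ubiquitous isoforms that were higher with the ATF4 vector, and Eno3 and Pgam2, muscle isoforms that were lower. Different words were marked in the 2 pairs, which is a choice of display. Each sequence is the RefSeq window of GRCm38.p6 (the mm10 build) from 250 bases before to 50 bases after the annotated start, written 5′ to 3′ on the strand of the gene. In the first pair, capitals mark the cores ACGTG and GCGTG of the hypoxia response element, searched on both strands. In the second pair, capitals mark the E-box CANNTG, the general binding word of muscle regulatory factors.
Slc2a1 promoter, chr4:119108495-119108794, plus strand: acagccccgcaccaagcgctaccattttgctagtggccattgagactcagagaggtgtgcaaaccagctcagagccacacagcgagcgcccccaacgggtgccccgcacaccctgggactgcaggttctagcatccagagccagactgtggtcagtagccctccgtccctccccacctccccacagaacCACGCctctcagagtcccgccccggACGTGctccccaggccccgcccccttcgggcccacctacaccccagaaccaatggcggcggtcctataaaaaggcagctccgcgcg
Pfkp promoter, chr13:6648722-6649021, minus strand: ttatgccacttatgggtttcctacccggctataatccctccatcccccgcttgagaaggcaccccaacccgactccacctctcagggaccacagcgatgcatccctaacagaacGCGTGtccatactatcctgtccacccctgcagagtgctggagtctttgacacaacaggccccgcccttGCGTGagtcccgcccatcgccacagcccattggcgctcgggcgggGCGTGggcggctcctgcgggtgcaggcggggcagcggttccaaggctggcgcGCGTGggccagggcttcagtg
Eno3 promoter, chr11:70656926-70657225, plus strand: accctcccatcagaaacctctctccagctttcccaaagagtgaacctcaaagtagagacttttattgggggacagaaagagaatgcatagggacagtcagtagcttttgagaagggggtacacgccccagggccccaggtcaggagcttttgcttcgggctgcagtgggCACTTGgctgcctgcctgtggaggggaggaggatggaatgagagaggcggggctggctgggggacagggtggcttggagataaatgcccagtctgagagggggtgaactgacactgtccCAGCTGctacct
Pgam2 promoter, chr11:5803747-5804046, minus strand: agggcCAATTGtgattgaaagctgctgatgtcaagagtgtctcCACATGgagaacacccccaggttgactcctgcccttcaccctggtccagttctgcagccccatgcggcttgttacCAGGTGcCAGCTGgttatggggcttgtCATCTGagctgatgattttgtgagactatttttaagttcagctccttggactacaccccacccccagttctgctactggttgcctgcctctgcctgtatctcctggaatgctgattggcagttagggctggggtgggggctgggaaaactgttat
The Slc2a1 window held 1 ACGTG and 1 GCGTG, and that of Pfkp held 4 GCGTG. The Eno3 window held 2 E-boxes and that of Pgam2 held 5. Eno3 also had 1 GCGTG, left unmarked, and Pgam2 had 0 of either core. The Slc2a1 and Pfkp windows held 0 E-boxes. Elsewhere the windows of Gys1 and Gbe1, which rose, held 0 cores and 2 E-boxes each. A window of Ldha, which fell, held 5 ACGTG and 2 GCGTG. Of the 32 members, 30 were in the promoter table, with 48 windows in all. The C/EBP-ATF composite element TGATGNAA, the word through which ATF4 acts at many of its targets, was in 0 of these 48 windows, against 3.97% of all 32851 windows of the same length. ACGTG was in 23 of the 48 windows (19.6% of all windows), GCGTG in 26 (32.4%), the E-box CACGTG in 5 (7.15%) and CANNTG in 34 (72.3%). A CACGTG is also counted as ACGTG and as CANNTG. These matches describe the letters in the windows and say nothing of binding.

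Depth was similar in all libraries, with 6217744 to 8317249 counts each. The vector genes followed the labels: Atf4 stood at 351 to 538 CPM (counts scaled to a common library size, with edgeR's TMM correction for composition) in the ATF4 libraries against 51.3 to 82.1 CPM in GFP, and Ddit3 at 664 to 1070 CPM in the DDIT3 libraries against 13.4 to 16.6 CPM in GFP. In the ATF4 libraries Ddit3 was also above GFP, at 21.7 to 38.5 CPM. Atf4 in the DDIT3 libraries, at 43.6 to 101 CPM, overlapped with GFP. ATF4 replicate 2 and DDIT3 replicate 2 stood apart from the rest of their groups on the second principal component (11.4% of the variance). Summed over 11 cardiomyocyte markers, the level was 104954 to 134879 CPM in GFP, 82075 to 101718 CPM in ATF4 and 103727 to 114472 CPM in DDIT3. Of the 11, 6 were lower in ATF4 than in GFP (Tnni3, Ryr2, Pln, Myl2, Myl3 and Mybpc3) and 0 higher. The largest part of these sums was Myh6, which was not called and overlapped (45632 to 79953 CPM in GFP, 38670 to 57986 CPM in ATF4). Summed over 14 endothelial markers, none of them at 0, it was 521 to 1037 CPM in GFP, 1181 to 1713 CPM in ATF4 and 505 to 849 CPM in DDIT3, and 12 of the 14 were higher in ATF4 than in GFP. Of 10 tested pericyte and smooth muscle markers 5 were higher in ATF4 (Pdgfrb, Cspg4, Rgs5, Kcnj8 and Notch3) and 0 lower. The sums over 11 listed markers overlapped (760 to 1452 CPM in ATF4, 896 to 1388 CPM in GFP). Most of each sum came from 2 markers that were not called. These were Abcc9 (407 to 554 CPM in ATF4, 381 to 633 CPM in GFP) and Acta2 (39.9 to 666 CPM in ATF4, 275 to 717 CPM in GFP). Of 12 tested fibroblast markers 2 were higher and 1 lower (506 to 1080 CPM in ATF4, 401 to 889 CPM in GFP). Of 8 tested leukocyte markers 0 were called (sums 17.6 to 36.6 CPM in ATF4, 24.8 to 37.1 CPM in GFP), with Cd3e at 0 in both groups, and erythroid markers summed to 0.613 to 18.5 CPM in GFP and 1.17 to 6.95 CPM in ATF4. Against DDIT3, 13 of the 14 endothelial, 6 of the 10 pericyte and smooth muscle and 5 of the 12 fibroblast markers were higher in ATF4, and 6 of the 11 cardiomyocyte markers and 1 fibroblast marker were lower. Over all genes tested, 16.5% were higher and 15.6% lower in ATF4 than in GFP, and 17.8% and 16% against DDIT3. Endothelial cells use GLUT1 as their main glucose transporter, and the part of these marker changes in the results below was not tested. In bulk samples, fewer cells of a type and less RNA per cell cannot be told apart.

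Isoforms typical of striated muscle headed the members in the control libraries. On the per-length scale (counts divided by the deposited gene length and brought to the same sum in each library, without TMM, which allows genes to be compared), the highest of the 32 in GFP were Aldoa, the main muscle aldolase, at 4866 ± 239, and Eno3, muscle enolase, at 4342 ± 126 (SD, n = 5). Ldhb, the heart form of lactate dehydrogenase, followed at 2913 ± 221, Pgam2, muscle phosphoglycerate mutase, at 2015 ± 56.5, and Pygm, muscle glycogen phosphorylase, at 1745 ± 149. Aldoa and Eno3 differed by more than the sum of their SDs, whereas Pkm (1179 ± 98.9) and Pfkm (1173 ± 116) could not be ordered. At the other end stood Aldoc at 0.0960 ± 0.140, Slc2a3 at 0.336 ± 0.221 and Eno1 at 0.428 ± 0.372. These 3 were under the filter on low counts and were not tested, which left 29 tested members.

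Some low levels belonged to genes whose RNA is hard to count. A transcript was cut into words of 50 bases, and the share of words that also occur in another annotated gene was computed. It was 82.5% for Gapdh, whose copies include 215 pseudogenes, 72.2% for Eno1, 68.0% for Pgk1, 41.5% for Pgam1 and 34.4% for Pkm. Genes of higher level also shared words, with 27% for Ldhb, 25.3% for Gpi1, 16.6% for Ldha and 13.5% for Aldoa. The share was 25.1% for Pfkfb2, 17.1% for Pfkp and 10.7% for G6pdx, and at most 7.51% for the remaining members. Gapdh, usually among the most abundant transcripts of a cell, stood at only 158 ± 19.3 on the per-length scale in GFP, and Pgk1 at 32.1 ± 2.02, both far below the enzymes that act just before and after them, Tpi1 (1391 ± 120) and Pgam2. How reads that match several genes were handled is not given in the sources used here, and its part in these levels was not tested. For Eno3, Pgam2, Pfkm, Slc2a4, Hk2, Gbe1, Slc16a1, Slc16a3, Slc2a3 and Aldoc the share was 0. The plot of level against shared sequence shows the members of high share and low level on its right side.

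**Figure D1:**
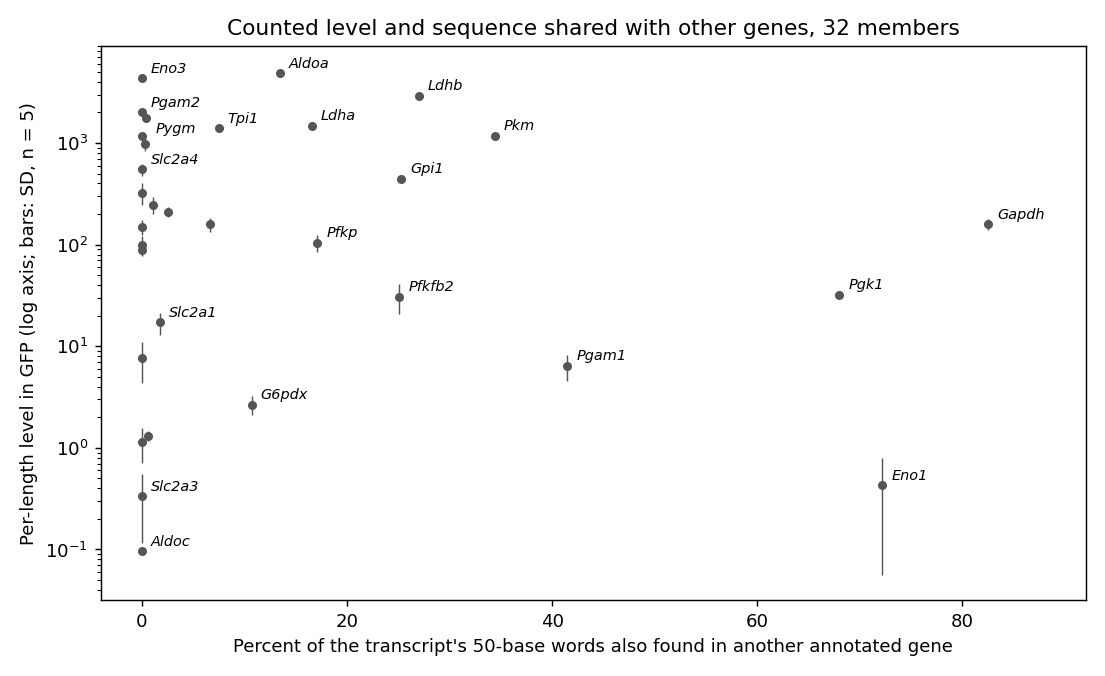
Each point is 1 of the 32 genes: the horizontal axis gives the percent of its 50-base words found in another annotated gene, the vertical axis (log scale) its mean per-length level in the 5 GFP libraries, with bars for the SD (no bar for Aldoc, whose SD exceeds its mean). Gapdh, Eno1 and Pgk1 combine a share of 68.0% or more with levels of 158, 0.428 and 32.1.

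With the ATF4 vector, 15 of the 29 tested members passed the test against GFP, 7 higher and 8 lower, and 14 did not pass. Over all 11814 genes tested the share called was 32.2%, with 16.5% higher and 15.6% lower, and among these members it was 51.7%. The test was edgeR's quasi-likelihood test with Benjamini-Hochberg adjustment over all 11814 genes and a threshold of 0.05. Libraries of the 2 groups did not overlap for 12 of the 29 members (21.4% of all genes), of which 11 were also called. The median log2 fold change of the members was -0.08, against 0.0244 over all genes. The labels do not state whether each library of a group is a separate mouse, and p-values cover only the scatter among these libraries, which may be technical. The plot of fold changes orders the members by role.

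**Figure D2:**
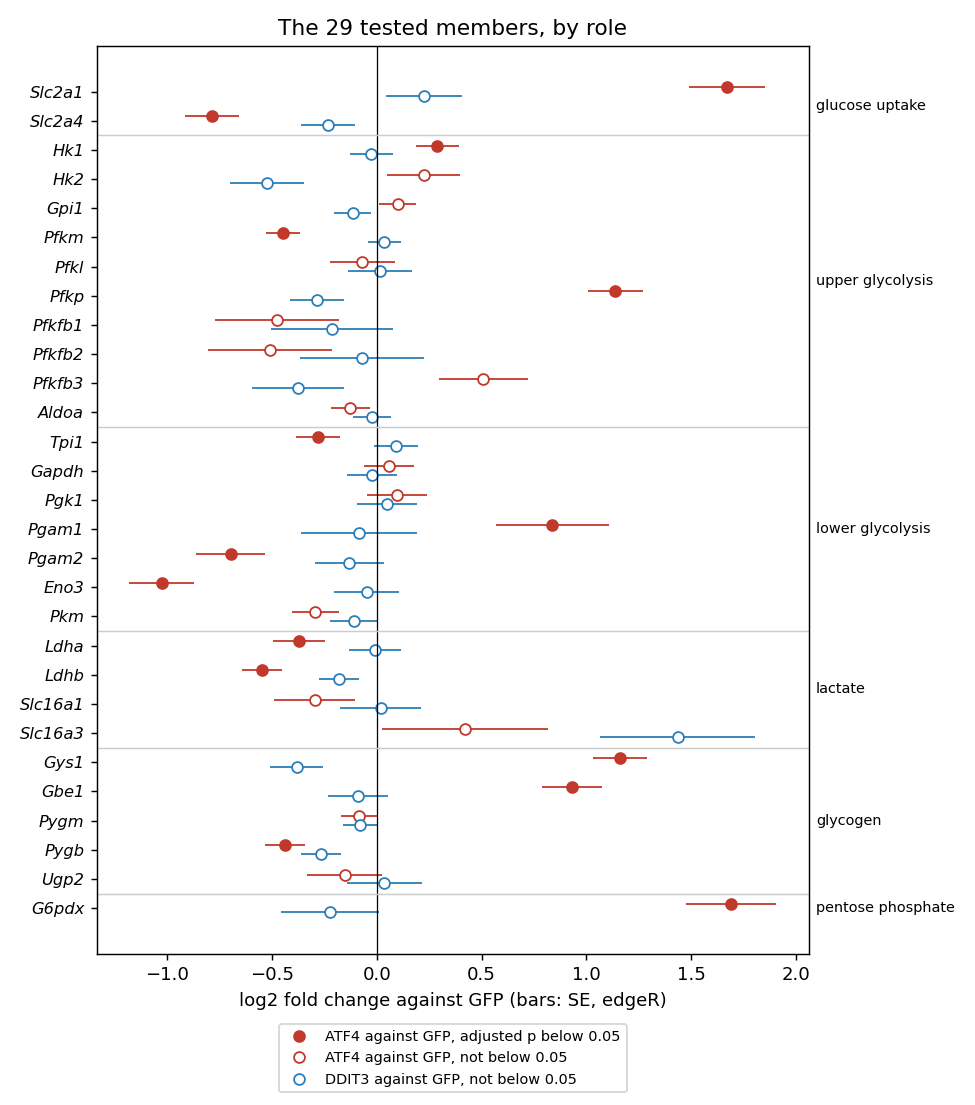
The horizontal axis gives the log2 fold change against GFP with its SE (edgeR) for the 29 tested members, red for ATF4 and blue for DDIT3, filled where the adjusted p was below 0.05. Filled points run from -1.03 for Eno3 to 1.69 for G6pdx, and no DDIT3 point is filled.

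The RNA of the glucose transporters GLUT1 and GLUT4 moved in opposite directions. Slc2a1 (chromosome 4, 119108711 to 119137983, mm10) encodes GLUT1, the basal glucose transporter. It counted 19.7, 24.1, 18.4, 15.1 and 28.8 CPM in GFP replicates 1 to 5, 84.1, 53.4, 66.6, 57.8 and 76.1 CPM in ATF4, and 20.8, 28.4, 21.1, 21.2 and 32.5 CPM in DDIT3. All ATF4 libraries lay above all others, while DDIT3 and GFP overlapped. The level was 3.19-fold that of GFP in ATF4, or 1.67 ± 0.18 on the log2 scale (SE; adjusted p = 1.4e-06 by edgeR). Slc2a4 (chromosome 11, 69942539 to 69948188) encodes GLUT4, the transporter that insulin and contraction bring to the surface of muscle cells. In GFP it counted 760.3, 652, 862, 703 and 736 CPM, in ATF4 404, 321, 558, 437 and 431 CPM, and in DDIT3 541, 609, 720.1, 592 and 697 CPM. The highest ATF4 library lay below the lowest GFP library, and the log2 fold change was -0.79 ± 0.13 (edgeR adjusted p = 0.000152). Slc2a3, the high-affinity transporter GLUT3, had 24 counts over all GFP libraries, 39 in ATF4 and 25 in DDIT3, too few to test. Of the per-length level of the 3 transporters together, Slc2a1 made up 3.07 ± 0.874% in GFP, 14.9 ± 2.81% in ATF4 and 4.14 ± 0.749% in DDIT3 (mean ± SD). Slc2a8, a transporter outside the members, is not among these 3. Its per-length level in GFP (38.0 to 51.4) was above that of Slc2a1 (11.7 to 23.3). The summed level of the 3 was 568 ± 77.4 in GFP, 426 ± 52.2 in ATF4 and 487 ± 58.3 in DDIT3, so that Slc2a4 stayed the main transporter RNA in every group. These sums carry no TMM correction, and a difference between groups was not tested on them.

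Of the 2 hexokinases, which trap glucose as glucose 6-phosphate, 1 passed the test. Hk1, the ubiquitous form, counted 466, 453, 445, 403 and 519 CPM in GFP, 611, 541, 509, 514 and 619 CPM in ATF4, and 399.8, 455, 432, 414 and 545 CPM in DDIT3. The groups overlapped, and the log2 fold change in ATF4 was 0.29 ± 0.10 (edgeR adjusted p = 0.0401), a call lost in 11 of 22 alternative analyses (edgeR adjusted p up to 0.105), among them those without ATF4 replicate 1 or 5, DDIT3 replicate 1 or 3, or any of GFP replicates 1 to 4. Hk2, the insulin-responsive muscle form, counted 238, 195, 289.6, 256 and 343 CPM in GFP, 286, 276, 315, 336 and 331 CPM in ATF4, and 159, 142, 152, 179 and 289 CPM in DDIT3. Against GFP its log2 fold change in ATF4 was 0.22 ± 0.18 (edgeR adjusted p = 0.353). Gpi1, which turns glucose 6-phosphate into fructose 6-phosphate, lay at 576 to 639 CPM in GFP and 546 to 706 CPM in ATF4 (0.10 ± 0.09, edgeR adjusted p = 0.405).

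Phosphofructokinase, the committed step of glycolysis, changed its isoform mix. Pfkm (chromosome 15, 98092589 to 98132451), the muscle subunit, counted 1838, 1546, 1696, 1695 and 1792 CPM in GFP, 1294, 1161, 1280, 1285 and 1266 CPM in ATF4, and 1683, 1691, 1914, 1669 and 1826 CPM in DDIT3. Every ATF4 library was below every other library, with a log2 fold change against GFP of -0.45 ± 0.08 (edgeR adjusted p = 0.000342). Pfkp (chromosome 13, 6579768 to 6648777), the platelet subunit found in many cell types, counted 228, 189.7, 169.9, 169 and 241 CPM in GFP, 479, 358, 409, 439 and 510.3 CPM in ATF4, and 150.2, 154, 147, 163 and 203 CPM in DDIT3. The ATF4 libraries stood clear of both other groups, 2.20-fold above GFP (log2 1.14 ± 0.13, edgeR adjusted p = 2.92e-06). Of the words of the Pfkp transcript, 17.1% also occur in 1 other annotated gene. Pfkl, the liver subunit, counted 245, 211, 288, 269 and 317 CPM in GFP, 237, 165, 303, 253 and 309 CPM in ATF4, and 239, 223, 287, 278 and 317 CPM in DDIT3, with overlapping groups and a change of -0.07 ± 0.16 on the log2 scale in ATF4 (edgeR adjusted p = 0.766). The per-length level summed over the 3 subunits was 1427 ± 147 in GFP and 1413 ± 93.3 in ATF4. Within that sum Pfkp took 7.31 ± 0.927% in GFP, 18.6 ± 1.48% in ATF4 and 5.96 ± 0.709% in DDIT3. The per-length scale has no TMM correction, and TMM factors were 1.03 to 1.10 in ATF4 and 0.900 to 0.983 in GFP. With TMM, Pfkm, Pfkl and Pfkp averaged 1713, 266 and 199 CPM in GFP and 1257, 253 and 439 CPM in ATF4. A difference in the sum was not tested.

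The bifunctional enzymes that make and break fructose 2,6-bisphosphate, the activator of phosphofructokinase, did not pass the test in ATF4 against GFP for any of the 3 members, Pfkfb1, Pfkfb2 and Pfkfb3. Pfkfb2, the heart form, counted 111, 211, 143, 83.1 and 164 CPM in GFP, 74.6, 184, 92, 60.7 and 87.6 CPM in ATF4, and 124, 212, 112, 109.8 and 119 CPM in DDIT3. Replicate 2 was the highest library of each group, and the log2 fold change in ATF4 was -0.51 ± 0.30 (edgeR adjusted p = 0.204). Without ATF4 replicate 2 it was -0.85 (edgeR adjusted p = 0.0166). Pfkfb3, the form induced by hypoxia, counted 3.22, 3.78, 3.68, 3.03 and 3.003 CPM in GFP, 6.25, 4.98, 3.09, 4.40 and 5.08 CPM in ATF4, and 2.42, 2.91, 3.02, 2.47 and 2.02 CPM in DDIT3. Of the 5 ATF4 libraries, 4 lay above all GFP libraries and replicate 3 lay among them, which gave 0.51 ± 0.21 on the log2 scale (edgeR adjusted p = 0.0733, and 0.0245 without ATF4 replicate 3). Pfkfb1, the liver form, lay at 3.91 to 10.1 CPM in GFP and 2.84 to 6.45 CPM in ATF4 (-0.48 ± 0.30, edgeR adjusted p = 0.235).

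From aldolase to phosphoglycerate kinase, 1 of 4 tested members passed the test. Aldoa, the most abundant member per length, counted 4006, 4579, 4312, 4134 and 4266 CPM in GFP, 3562, 3189, 4362, 4152 and 4251 CPM in ATF4, and 3912, 4241, 4333, 4132 and 4353 CPM in DDIT3. The groups overlapped and the log2 fold change in ATF4 was -0.13 ± 0.09 (edgeR adjusted p = 0.316). Aldoc, the brain form, had 3 counts over all GFP libraries (0.134, 0, 0, 0.263 and 0 CPM), 9 in ATF4 (0.130, 0.293, 0.403, 0.142 and 0.254 CPM) and 28 in DDIT3 (0.968, 0.555, 1.09, 0.651 and 0.269 CPM). Its DDIT3 to GFP ratio was 8.54, with a 95% exact binomial interval of 2.64 to 43.9 that covers counting error only. Tpi1, triosephosphate isomerase, lay at 994 to 1113 CPM in GFP and 699 to 1074 CPM in ATF4 and was called lower by a narrow margin (-0.28 ± 0.11, edgeR adjusted p = 0.0482, lost in 16 of 22 alternatives at 0.0501 to 0.104). Gapdh lay at 82.3 to 104 CPM in GFP and 69.6 to 113 CPM in ATF4 (0.06 ± 0.12, edgeR adjusted p = 0.749), and Pgk1, the first ATP-making enzyme of the pathway, at 24.5 to 30.5 and 20.7 to 35.8 CPM (0.09 ± 0.14, edgeR adjusted p = 0.647).

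The muscle forms of mutase and enolase fell. Pgam2 (chromosome 11, 5801640 to 5803733) encodes muscle phosphoglycerate mutase and counted 829, 928, 851, 941 and 837 CPM in GFP, 463, 309, 699, 670.5 and 563 CPM in ATF4, and 704, 713, 809, 951 and 827 CPM in DDIT3. ATF4 and GFP did not overlap (log2 fold change -0.70 ± 0.17, edgeR adjusted p = 0.00358). Its ubiquitous partner Pgam1 counted 3.62, 4.82, 6.59, 5.40 and 7.74 CPM in GFP, 7.55, 7.18, 10.5, 10.8 and 14.1 CPM in ATF4, and 5.21, 2.91, 4.46, 5.08 and 8.76 CPM in DDIT3. It was higher in ATF4 (0.84 ± 0.27, edgeR adjusted p = 0.0229), although ATF4 replicates 1 and 2 lay within the GFP range. Leaving out ATF4 replicate 5 or either of GFP replicates 1 and 2 ended the call (edgeR adjusted p = 0.0732, 0.0602 and 0.0516). Eno3 (chromosome 11, 70657202 to 70662513), muscle enolase, had the largest fall of the 29 tested members in this comparison. It counted 3049, 3408, 3040, 3295 and 3048 CPM in GFP, 1267, 953, 1951, 1934 and 1676 CPM in ATF4, and 2950, 2599, 3145, 3424 and 3205 CPM in DDIT3. Each ATF4 library was below each GFP and DDIT3 library, at 0.491 of the GFP mean (log2 -1.03 ± 0.16, edgeR adjusted p = 6.6e-05). Its ubiquitous partner Eno1 had 14 counts in GFP (0.268, 0.782, 0.153, 0.658 and 0 CPM), 32 in ATF4 (0.781, 0.733, 0.941, 1.14 and 0.762 CPM) and 17 in DDIT3 (0.121, 0.555, 0.483, 0.781 and 0.269 CPM). The ATF4 to GFP ratio of Eno1 was 2.21 (95% counting interval 1.14 to 4.47), from 50-base words of which 72.2% are shared. Pkm, pyruvate kinase, the last step, lay at 1385 to 1552 CPM in GFP and 854 to 1345 CPM in ATF4. Its groups did not overlap, yet it just missed the threshold (-0.29 ± 0.11, edgeR adjusted p = 0.0511) and was called in 6 of 22 alternatives (0.00708 to 0.0432). Counts per gene do not separate the muscle and embryonic splice forms of Pkm.

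Both lactate dehydrogenase subunits fell, and no member of the lactate group rose. Ldhb (chromosome 6, 142490249 to 142507957), the heart subunit that favours lactate oxidation, counted 1685, 2102, 1688, 1745 and 1807 CPM in GFP, 1142, 1086, 1279, 1387 and 1282 CPM in ATF4, and 1484, 1772, 1535, 1525 and 1656 CPM in DDIT3. The ATF4 libraries were below all others (-0.55 ± 0.09 against GFP, edgeR adjusted p = 0.000245). Ldha, the subunit that favours lactate production, counted 1204, 1319.6, 1413, 1455 and 1460.3 CPM in GFP, 907, 747, 1264, 1151 and 1228 CPM in ATF4, and 1416, 1220.2, 1378, 1366 and 1432 CPM in DDIT3. ATF4 replicates 3 and 5 reached above the lowest GFP library, and the log2 fold change was -0.37 ± 0.13 (edgeR adjusted p = 0.0301). Without ATF4 replicate 1 it was -0.32 (edgeR adjusted p = 0.0832) and without ATF4 replicate 2 it was -0.27 (edgeR adjusted p = 0.0516). Leaving out GFP replicate 3, 4 or 5 also ended the call (edgeR adjusted p = 0.0580, 0.0632 and 0.0623). Ldhb made up 66.3 ± 2.74% of the summed per-length level in GFP, 63.9 ± 3.38% in ATF4 and 63.6 ± 2.86% in DDIT3, and the sum itself was 4391 ± 192, 3588 ± 247 and 4047 ± 164. The sum carries no TMM correction and was not tested between groups. Slc16a1, which encodes the transporter MCT1, counted 586, 518, 680.4, 683 and 959 CPM in GFP, 490.0, 451, 536, 621 and 691 CPM in ATF4, and 668, 462, 630.3, 662 and 1049 CPM in DDIT3. Replicate 5 was the highest library of each group, and the log2 fold change in ATF4 was -0.30 ± 0.19 (edgeR adjusted p = 0.257). Slc16a3, which encodes the exporter MCT4, was rare, with 1.74, 0.652, 1.07, 1.98 and 1.58 CPM in GFP and 1.69, 0.733, 2.82, 1.85 and 2.29 CPM in ATF4 (0.42 ± 0.40, edgeR adjusted p = 0.442).

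Of 5 glycogen members, Gys1 and Gbe1 rose, Pygb fell, and Ugp2 and Pygm did not pass the test. Gys1 (chromosome 7, 45434844 to 45456619) encodes muscle glycogen synthase and counted 295, 232, 300.4, 259 and 316 CPM in GFP, 688, 563, 609, 522 and 757 CPM in ATF4, and 187, 204, 212, 198 and 275 CPM in DDIT3. The lowest ATF4 library exceeded the highest of any other group, at 2.24-fold the GFP mean (log2 1.16 ± 0.13, edgeR adjusted p = 1.85e-06). Gbe1 (chromosome 16, 70313949 to 70569716), the branching enzyme that shapes the glycogen particle, counted 121, 108, 130.2, 116 and 135 CPM in GFP, 274, 145, 220.2, 261 and 262 CPM in ATF4, and 106, 97.2, 125, 116 and 129 CPM in DDIT3. ATF4 replicate 2 was the closest to the other groups but still above them (0.93 ± 0.14, edgeR adjusted p = 8.23e-05). Ugp2, which makes the UDP-glucose that Gys1 consumes, lay at 299 to 477 CPM in GFP and 215 to 444 CPM in ATF4 (-0.15 ± 0.18, edgeR adjusted p = 0.540). Pygb (chromosome 2, 150786735 to 150831758), the brain form of glycogen phosphorylase, counted 2005, 1453, 1724, 1789 and 1959 CPM in GFP, 1379, 1295, 1199, 1407 and 1308 CPM in ATF4, and 1590.0, 1521, 1328, 1459 and 1529 CPM in DDIT3. ATF4 lay below GFP without overlap (-0.44 ± 0.10, edgeR adjusted p = 0.00182), whereas DDIT3 overlapped both. Pygm, the muscle form, counted 2445, 2331, 2364, 2203 and 2541 CPM in GFP, 2367, 1950.3, 2202, 2316 and 2382 CPM in ATF4, and 2108, 2326, 2217, 2104 and 2503 CPM in DDIT3. Its groups overlapped (-0.08 ± 0.09 in ATF4, edgeR adjusted p = 0.482).

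G6pdx (chromosome X, 74409483 to 74429194), which opens the pentose phosphate pathway and makes NADPH, rose about as much as Slc2a1. It counted 2.82, 4.56, 3.52, 2.90 and 2.84 CPM in GFP, 12.2, 9.97, 11.3, 10.5 and 10.03 CPM in ATF4, and 2.42, 3.19, 2.77, 4.29 and 1.62 CPM in DDIT3. The lowest ATF4 library was above the highest of the other 10, and the ATF4 level was 3.23-fold that of GFP (log2 1.69 ± 0.22, edgeR adjusted p = 1e-05). All 11 members that were called without overlap of their libraries, Slc2a1, G6pdx, Gys1, Pfkp, Gbe1, Eno3, Slc2a4, Pgam2, Ldhb, Pfkm and Pygb, were called in all 22 alternative analyses. Without ATF4 replicate 2 and DDIT3 replicate 2 together, 15 members were called. Sex was assigned from the counts, as female where Xist exceeded the sum of Kdm5d, Eif2s3y, Uty and Ddx3y. This gave replicate 2 of ATF4 and of DDIT3 and replicates 4 and 5 of GFP as female. With sex so assigned as a term, 15 members were called. Without GFP replicate 5, the 1 library labelled with another version of the SMART-Seq method, 13 members were called. The plot of members by library shows these 11 genes and Pgam1.

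**Figure D3:**
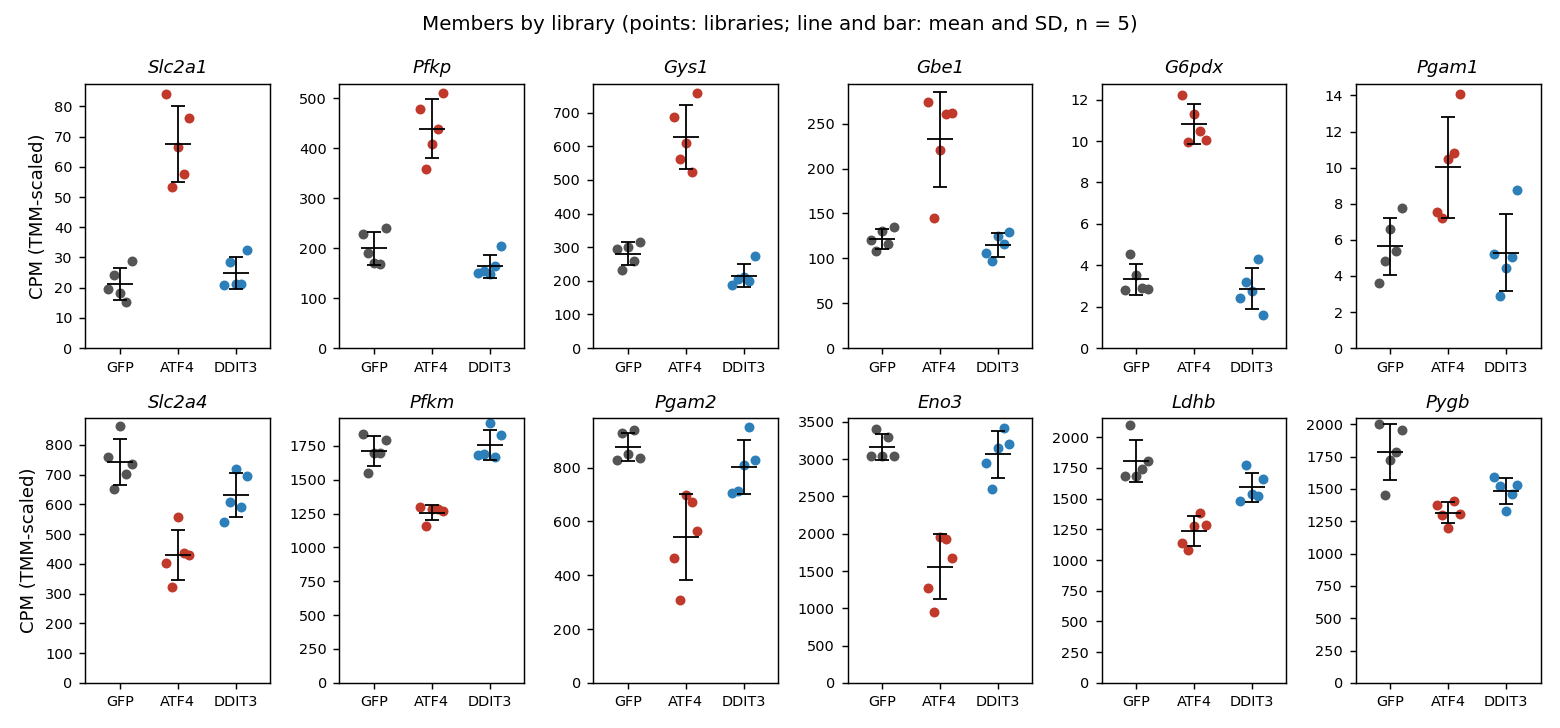
Vertical axes give CPM (TMM-scaled, from 0) for 12 members, with 1 point for each of the 5 libraries of GFP, ATF4 and DDIT3 and a line and bar for the mean and SD. In the upper row, 5 of the 6 genes have all ATF4 points above all others (Slc2a1 from 53.4 CPM, others up to 32.5 CPM), and Pgam1 overlaps. In the lower row, ATF4 points lie below all GFP points.

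The muscle to ubiquitous ratio was tested within each library, where the scaling of libraries has no effect. Of 7 pairs classed as muscle to ubiquitous, 4 were lower in ATF4 than in GFP and 1 was higher. The tests were 2-sided exact permutation tests over 5 and 5 libraries (smallest possible p 0.00794), adjusted over 33 tests of 11 pairs in 3 comparisons. Pfkl, the liver subunit, and Pygb, the brain form, were classed here as the ubiquitous partners of Pfkm and Pygm. Slc2a4 to Slc2a1 differed by -2.49 on the log2 scale, Pfkm to Pfkp by -1.59, Pgam2 to Pgam1 by -1.58 and Eno3 to Eno1 by -2.58 (exact permutation adjusted p = 0.0327 for each). In these 4 pairs the ratios of the ATF4 libraries did not overlap with those of GFP. Eno3 to Eno1 rests on 14 Eno1 counts in GFP and was not called when any of ATF4 replicates 1, 3, 4 or 5 was left out (exact permutation adjusted p up to 0.0524), whereas the first 3 pairs were called without each of the 10 libraries in turn. As the 33 tests are adjusted together, calls and losses of a ratio also depend on the p-values of the other ratios. Pygm to Pygb went the other way, by 0.35 (exact permutation adjusted p = 0.0476), with 35.7 ± 2.53% of the summed per-length level from Pygb in GFP and 30.4 ± 1.73% in ATF4. That call was kept in 2 of 10 leave-one-out tests (without ATF4 replicate 2 or GFP replicate 2). Hk2 to Hk1 differed by -0.04 (exact permutation adjusted p = 0.864) and Pfkm to Pfkl by -0.35 (exact permutation adjusted p = 0.107). None of the other 4 pairs was called in this comparison: Aldoa to Aldoc differed by -1.42, Ldhb to Ldha by -0.15, Slc16a1 to Slc16a3 by -0.66 and Pfkfb2 to Pfkfb3 by -1.02 (exact permutation adjusted p = 0.0827, 0.337, 0.0917 and 0.0827). By limma on the same ratios, Aldoa to Aldoc and Pfkfb2 to Pfkfb3 were called (adjusted p = 0.0227 and 0.0151). On the per-length scale Slc2a4, Pfkm, Pgam2, Eno3 and Pygm were the main isoform of their families in all 3 groups, whereas of the hexokinases the ubiquitous Hk1 was, with 68.1 ± 3.98% in GFP, 68.8 ± 2.97% in ATF4 and 75.3 ± 3.77% in DDIT3. Pgam2 held 99.7 ± 0.0981% of the mutase level in GFP and 99.1 ± 0.224% in ATF4, and Eno1 was 0.00971 ± 0.00838% of the enolase level in GFP and 0.0497 ± 0.0107% in ATF4. Of the 50-base words, 72.2% for Eno1 and 41.5% for Pgam1 also occur in another gene, against 0 for Eno3 and Pgam2. The part of this in these shares and ratios was not tested.

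**Figure D4:**
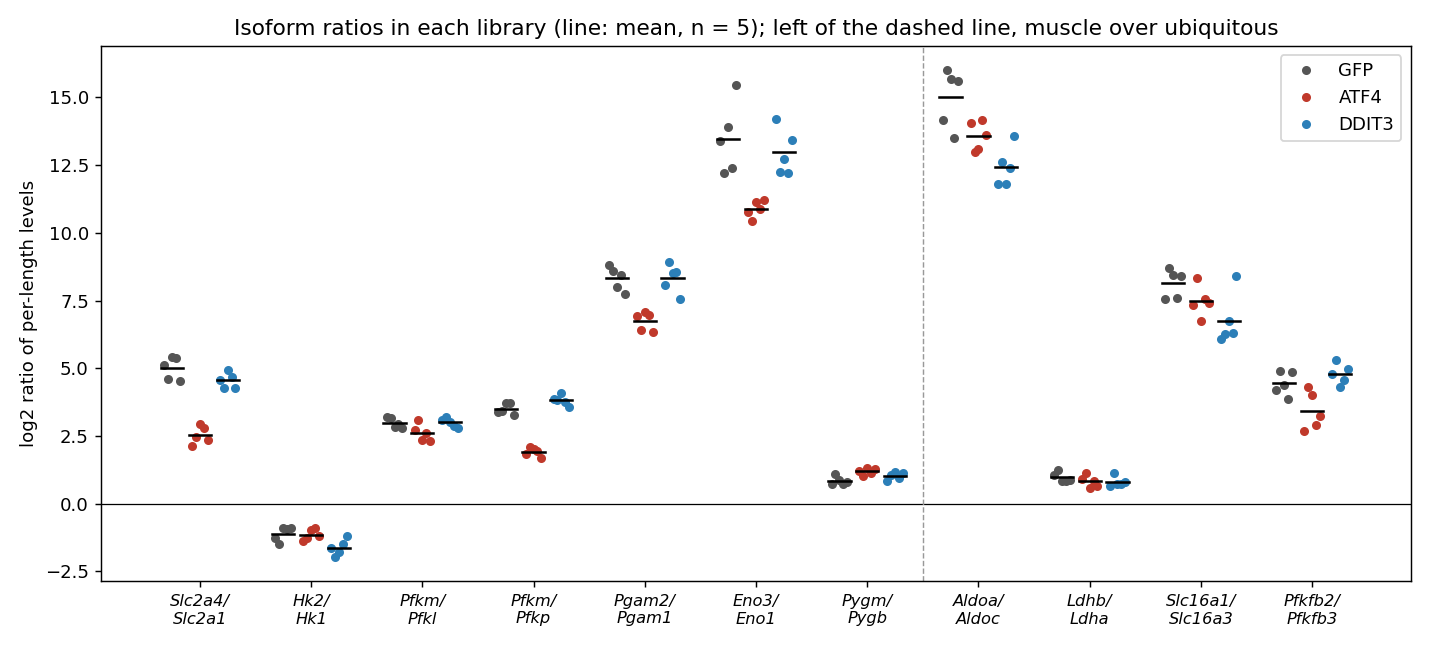
The vertical axis gives the log2 ratio of per-length levels (counts plus 0.5) of the 2 genes named under each column, with 1 point for each library and a line for the group mean. Red ATF4 points lie below grey GFP points without overlap for Slc2a4 to Slc2a1, Pfkm to Pfkp, Pgam2 to Pgam1 and Eno3 to Eno1, where the means differ by -2.49, -1.59, -1.58 and -2.58.

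With the DDIT3 vector, 0 of the 29 tested members passed edgeR's test against GFP, where 0.863% of all genes were called (0.525% higher and 0.339% lower). Libraries of DDIT3 and GFP did not overlap for 2.86% of all genes. No endothelial or cardiomyocyte marker was called between DDIT3 and GFP, with a median log2 fold change of -0.28 over the 14 endothelial markers. Of 12 tested fibroblast markers 1, Fbln1, was lower in DDIT3. At an unadjusted p under 0.05 by edgeR there were 5 members (Hk2, Pfkp, Slc16a3, Gys1 and Pygb), where 9.71% of all genes passed. DESeq2 called 1 member, where it called 1.93% of all genes. Log2 fold changes ran from -0.52 for Hk2 to 1.44 for Slc16a3, with a median of -0.08. Standard errors were 0.0799 to 0.371 with a median of 0.143, so that small changes of single members were not detectable at this spread. Slc16a3 counted 5.69, 3.47, 3.38, 4.81 and 1.75 CPM in DDIT3, of which 4 libraries were above and replicate 5 was within the GFP range (1.44 ± 0.37, edgeR adjusted p = 0.0843). It had 150 counts in DDIT3 and 50 in GFP. Same-numbered libraries of these 2 groups deviated together, and a fit that adds the replicate number as a block called 3 members (2.73% of all genes): Slc16a3 higher (edgeR adjusted p = 0.0335), Hk2 lower (-0.54, edgeR adjusted p = 0.0133) and Gys1 lower (-0.39, edgeR adjusted p = 0.0205). Without DDIT3 replicate 5, Slc16a3 and Hk2 were called (edgeR adjusted p = 0.0399 and 0.0134), and without ATF4 replicate 2, which enters the shared estimate of the spread, Slc16a3 was (edgeR adjusted p = 0.0471). Hk2 in DDIT3 was 142 to 179 CPM in 4 libraries and 289 CPM in replicate 5, against 195 to 343 CPM in GFP. Of the 11 isoform ratios 1 was called, Aldoa to Aldoc (-2.57, exact permutation adjusted p = 0.0476). It rests on 3 Aldoc counts in GFP and was not called in 8 of 10 leave-one-out tests, namely without any of DDIT3 replicates 1 to 4 or GFP replicates 1, 2, 3 or 5 (exact permutation adjusted p up to 0.0714). The adjustment pools the 33 tests of all 3 comparisons, and every ratio at the smallest possible p was from a comparison with ATF4. The call of Aldoa to Aldoc (exact permutation p = 0.0159 before adjustment) and its losses thus depend on those ratios as well.

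Compared directly, ATF4 and DDIT3 libraries differed in 17 of 29 members (58.6%, against 33.8% of all genes), 9 higher in ATF4 (17.8% of all genes) and 8 lower (16% of all genes). For 10 of the 29 the libraries did not overlap (22.6% of all genes). This comparison shares the ATF4 libraries with the first. Members higher in ATF4 were Slc2a1 (1.45 ± 0.18), Pfkp (1.42 ± 0.13), Gys1 (1.54 ± 0.13), Gbe1 (1.02 ± 0.14), G6pdx (1.91 ± 0.22), Pgam1 (0.92 ± 0.27), Hk1 (0.31 ± 0.10), Hk2 (0.75 ± 0.18) and Pfkfb3 (0.89 ± 0.21). Hk2 at 276 to 336 CPM in ATF4 overlapped with DDIT3 at replicate 5 only, and every Pfkfb3 library of ATF4 exceeded every one of DDIT3 (3.09 to 6.25 against 2.02 to 3.02 CPM). Members lower in ATF4 were Eno3 (-0.98 ± 0.16), Pgam2 (-0.57 ± 0.17), Slc2a4 (-0.55 ± 0.13), Pfkm (-0.48 ± 0.08), Tpi1 (-0.37 ± 0.11), Ldhb (-0.37 ± 0.09), Ldha (-0.36 ± 0.13) and Slc16a3 (-1.01 ± 0.36). The largest edgeR adjusted p of these 17 was 0.0349, for Slc16a3, which was not called without ATF4 replicates 1, 2 or 4 or DDIT3 replicates 1 or 4 (edgeR adjusted p = 0.0592 to 0.107). Hk1 and Ldha were also lost in some alternatives. With the replicate number as a block, Gpi1 (0.21), Pfkfb2 (-0.51) and Slc16a1 (-0.28) were called as well (edgeR adjusted p = 0.0258, 0.00262 and 0.0115). Of the isoform ratios 5 were lower in ATF4: Slc2a4 to Slc2a1 by -2.02, Pfkm to Pfkp by -1.90, Pgam2 to Pgam1 by -1.58, Eno3 to Eno1 by -2.08 (exact permutation adjusted p = 0.0327 for each) and Pfkfb2 to Pfkfb3 by -1.36 (exact permutation adjusted p = 0.0476). Pgam2 to Pgam1 was not called without ATF4 replicates 1, 3, 4 or 5, nor Pfkfb2 to Pfkfb3 without these or DDIT3 replicates 1 to 4.

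Other genes of the same pathways were read from 5 lists, with the counts in ATF4 against GFP first. Of all genes tested, 32.2% were called in that comparison, 16.5% higher and 15.6% lower. Of 14 tested genes of glucose entry and first steps, 2 rose and 1 fell. Slc2a12, the transporter GLUT12, fell from 13.4 to 4.42 CPM (-1.59 ± 0.20, edgeR adjusted p = 8.99e-06), Tigar, which lowers fructose 2,6-bisphosphate, rose (0.62 ± 0.14, edgeR adjusted p = 0.00273), and Pgm3 rose (0.42 ± 0.15, edgeR adjusted p = 0.0343). The Pgm3 call was lost in 10 of 22 alternatives (edgeR adjusted p up to 0.0866), among them those without any of ATF4 replicates 1 to 4 or GFP replicates 2 to 4. Of 12 genes of lower glycolysis, pyruvate use and shuttles, 3 rose and 6 fell (median -0.39). Pck2, mitochondrial phosphoenolpyruvate carboxykinase, rose from 6.73 to 357.7 CPM (5.72 ± 0.21, edgeR adjusted p = 2.53e-13), Pcx, pyruvate carboxylase, rose (1.24 ± 0.12, edgeR adjusted p = 2.78e-07), and Slc16a10, an aromatic amino acid transporter of the lactate transporter family, fell (-0.86 ± 0.15, edgeR adjusted p = 0.000185). Bsg, the partner that brings MCT1 and MCT4 to the membrane, fell from 1570 to 1004 CPM (-0.65 ± 0.14, edgeR adjusted p = 0.00137) and was chosen after its values were seen.

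Of 18 tested glycogen genes outside the members, 3 rose and 3 fell, where 16.5% of all genes were higher and 15.6% lower. Phkg1, the muscle catalytic subunit of phosphorylase kinase, fell from 24.9 to 9.21 CPM (-1.43 ± 0.14, edgeR adjusted p = 3.17e-07). Gyg, the glycogenin that primes glycogen, rose (0.77 ± 0.08, edgeR adjusted p = 1.06e-06), as did Stbd1, which anchors glycogen for lysosomal breakdown (1.28 ± 0.22, edgeR adjusted p = 0.000235). Of 8 pentose phosphate genes 3 rose and 0 fell, namely Pgd, the dehydrogenase that yields ribulose 5-phosphate (0.48 ± 0.09, edgeR adjusted p = 0.000694), Prps2, which makes the ribose donor of nucleotide synthesis (0.83 ± 0.16, edgeR adjusted p = 0.000672), and Tkt, transketolase (0.76 ± 0.21, edgeR adjusted p = 0.00966). Of 20 regulators of glucose use 0 rose and 4 fell, among them Mef2a, a muscle transcription factor that acts on Slc2a4 (-0.30 ± 0.08, edgeR adjusted p = 0.00859), Tbc1d4, which holds GLUT4 inside the cell (-0.47 ± 0.13, edgeR adjusted p = 0.0128), and Egln1, an oxygen sensor that marks HIF proteins for breakdown (-0.87 ± 0.28, edgeR adjusted p = 0.0257). The Egln1 call was lost without ATF4 replicate 4 or 5, without GFP replicate 5 and with no filter on low counts (edgeR adjusted p up to 0.0848). In DDIT3 against GFP, 1 gene of the 5 lists was called, where 0.863% of all genes were. It was Stbd1, which rose from 28.3 to 69.4 CPM (1.30 ± 0.22, edgeR adjusted p = 0.00567). Against DDIT3, ATF4 libraries had 2 higher and 1 lower of the genes of glucose entry, 2 and 5 of lower glycolysis, 1 and 2 of glycogen, 3 and 1 of the pentose phosphate genes and 0 and 2 of the regulators. Of all genes, 17.8% were higher and 16% lower there.

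The authors' deposited table of ATF4 against GFP called the same 15 members in the same directions and Pkm as well (log2 fold change -0.32, adjusted p = 0.0480). The authors' deposited table of DDIT3 against GFP called 1 member, Slc16a3 (1.44, adjusted p = 0.0184).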

How the data were processed

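RNA-seq of 15 libraries (3 vectors, 5 libraries each) was read from a count table. Reads were aligned with STAR to mm10 and counted with featureCounts, per the submitters' processing notes, whose versions and treatment of multi-mapping reads are not stated there. The deposited counts are whole reads per gene, not normalized, beside a deposited gene length. The authors' deposited tables give log2 fold changes and adjusted p-values of each vector against GFP, per the file headers, and the submitters' processing notes name DESeq2 and DESeq.

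From the counts, all 3 groups were fitted together with edgeR 4.0.16 (R 4.3.3): filterByExpr kept 11814 of 23337 genes, TMM scaled the libraries, and the robust quasi-likelihood test had 12 residual degrees of freedom and a common biological coefficient of variation of 19.6%. Adjusted p-values (Benjamini-Hochberg, threshold 0.05) cover all genes tested. Isoform ratios (counts plus 0.5) were compared by exact permutation tests (SciPy 1.17.1) over 33 tests. Alternatives used DESeq2 1.42.0, limma 3.58.1, no filter, a replicate block, a sex term, a prior of 2 and left-out libraries. The fit was tested on simulated data. Coordinates come from GENCODE M21 (mm10) and promoters from RefSeq (GRCm38.p6). Protein sequences were not used here.

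The members and lists were chosen with earlier results of these data known. Genes given library by library were members called in ATF4 against GFP without overlap, any member called in DDIT3 against GFP, and both genes of each isoform pair. From each pathway list at most 3 genes with the lowest p were named, and Bsg was added after its values were seen. Same-numbered libraries correlated in their deviations at 0.205 to 0.511 between DDIT3 and GFP and at 0.135 to 0.497 between ATF4 and DDIT3. Between ATF4 and GFP the correlation was 0.0783 for replicate 2 and 0.24 to 0.386 for the others. No 2 libraries differed by as little as sampling noise (chi-square per degree of freedom 8.60 to 50.4).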

Additional observations from a re-analysis of the deposited data

Results flagged for a closer look

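Of 87 groups of 5 libraries examined for the tested members, 6 held a library set apart from the others of its group by a Dixon test at the 95% level. Chance alone gives this in about 1 of 20 groups, but these groups share the same libraries. All 6 flags fell on ATF4 replicate 2, DDIT3 replicate 2 and DDIT3 replicate 5. Whether chance gave them was not tested. In ATF4, replicate 2 was the lowest for Pfkm (1161 CPM, next 1266) and Pkm (854 CPM, next 1217) and the highest for Pfkfb2 (184 CPM, next 91.996). In DDIT3, replicate 2 was the highest for Pfkfb2 (212 CPM, next 124), and replicate 5 was the highest for Hk2 (289 CPM, next 179) and Pfkp (203 CPM, next 163).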

How the results depend on the processing

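No direction of a called result was reversed under any alternative run. In DDIT3 against GFP the 0 called members became 1 with DESeq2's Wald test and ranged from 0 to 2 when 1 library was left out. With the replicate block they became 3. In ATF4 against GFP the block gave 18 called members in place of 15, with Pfkfb2 (-0.55), Pkm and Slc16a1 (-0.28) added (edgeR adjusted p = 0.00144, 0.00708 and 0.0126), and called 43.1% of all genes in place of 32.2%. There 4 of the 5 libraries correlated best with the library of their own number, a hint from the data and not the design. Over the 22 alternatives the called members ranged from 12 to 18 in ATF4 against GFP and from 14 to 20 in ATF4 against DDIT3. When 1 library was left out, the called isoform ratios ranged from 3 to 6 in ATF4 against GFP, from 0 to 3 in DDIT3 against GFP and from 3 to 8 in ATF4 against DDIT3. With limma on the log2 ratios, 4 were called in DDIT3 against GFP in place of 1, and 7 in each of the other comparisons in place of 5. The cause of these differences was not tested. Low counts limit Aldoc, Eno1, Slc2a3 and Slc16a3, and the part of shared sequence in the low levels of Gapdh, Eno1, Pgk1 and Pgam1 was not tested.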
